A study of Mus musculus with 6 samples.

Results

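The BCL2 family of apoptosis regulators was described through 10 genes in mouse radial glial progenitors (stem cells of the embryonic brain) treated with the lactate dehydrogenase inhibitor GSK2837808A (GSK) or with its solvent DMSO. The members were chosen by gene name, 1 row per gene identifier, and all 10 of the names were found among 32285 genes. They were the pro-survival genes Bcl2, Bcl2l1 and Mcl1, the effectors Bax and Bak1, and the BH3-only genes Bcl2l11, Bbc3, Bid, Bad and Pmaip1. All 6 libraries came from wild-type mouse neocortex at stage E10.5, dissociated and cultured in wells. The 3 GSK libraries came from cultures given the inhibitor, with 100 mM as the labelled concentration, and the 3 DMSO libraries from cultures given an equal volume of DMSO. After about 24 h, some 1000 living cells carrying the surface protein CD133, which is encoded by Prom1, were sorted per library, and their RNA was sequenced in bulk by Smart-seq2. No label says whether replicates were separate cultures or animals, so p-values measure the spread between these libraries, which may be technical.

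BCL2 family proteins decide whether the outer mitochondrial membrane is opened during apoptosis. The effectors BAX and BAK form the pores, the pro-survival proteins BCL2, BCL-XL (from Bcl2l1) and MCL1 hold them in check, and BH3-only proteins such as BIM (from Bcl2l11), PUMA (from Bbc3), BID, BAD and NOXA (from Pmaip1) relieve that check or activate the effectors. Once the membrane opens, cytochrome c leaves the mitochondrion and starts the caspase cascade. In the developing brain, loss of Bcl2l1 or Mcl1 in mice is known to cause death of neural cells, and loss of Bax to spare neurons that would otherwise die.

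In GSK libraries, Bcl2l11 and Bcl2l1 rose and Bcl2 and Bid fell, so that each direction held 1 gene that favours survival and 1 that favours death. Bcl2 was 0.51 times as high in GSK as in DMSO libraries and Bid 0.58 times, while Bcl2l11 was 1.68 times and Bcl2l1 1.63 times as high. Bax and Mcl1 had nearly the same mean in the groups. All 10 members passed the filter of a mean of at least 10 normalised reads. The test was limma on log2(value + 1), with Benjamini-Hochberg adjustment over 15073 genes and a threshold of 0.05. It called 4 of the 10 members, 2 higher and 2 lower, beside 36.1% of all genes tested (17% higher and 19.1% lower). Among the 10 members, 7 had GSK and DMSO libraries that did not overlap, beside 47.2% of all genes tested. The count of 4 calls was near what the background share gives for 10 genes, so it is no result about the members as a set. The median log2 fold change was 0.18 over the members and 0.01 over all genes tested. edgeR and DESeq2 on the recovered whole reads also called 4 members each, beside 36.5% and 34% of genes.

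**Figure D1:**
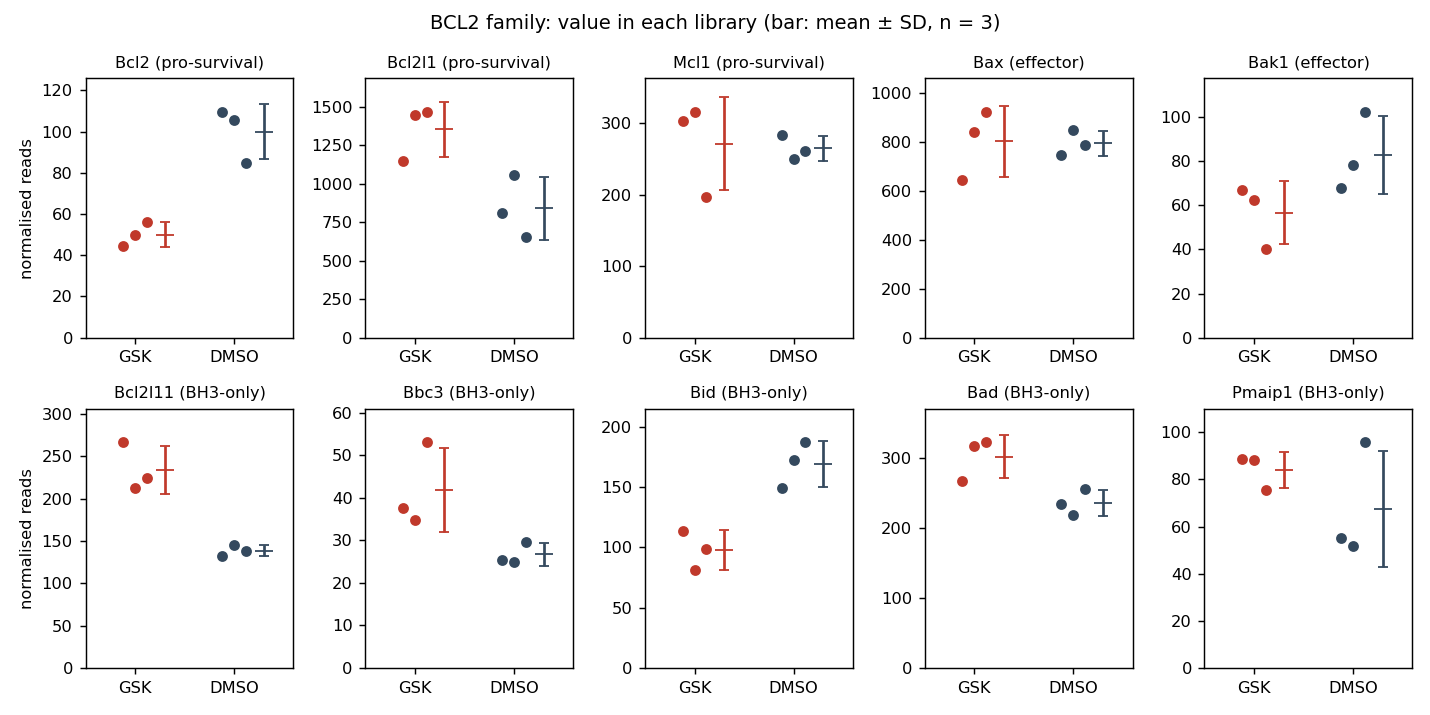
Normalised reads of each member in every library, with GSK left of DMSO, points for libraries and bars for the mean ± SD (n = 3). Bcl2 and Bid lay lower, and Bcl2l1 and Bcl2l11 higher, in all 3 GSK libraries than in any DMSO library, while Bax, Mcl1 and Pmaip1 overlapped.

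**Figure D2:**
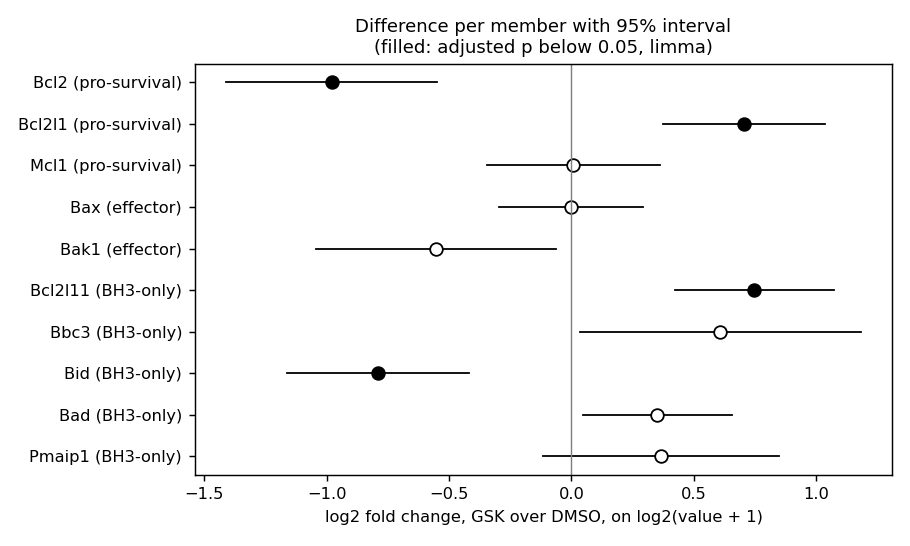
Log2 fold change of GSK over DMSO for each member on the log2(value + 1) scale, with its 95% interval and filled points where the adjusted p was below 0.05. The 4 filled points ran from -0.98 (Bcl2) to 0.75 (Bcl2l11), and each class with a filled point above 0 also had one below.

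The promoter sequences of the 4 members below are shown because Bcl2 and Bcl2l11 moved in opposite directions, Bbc3 is the other member with the FOXO motif found in Bcl2l11, and Bax, which did not pass the test, holds MYC-type E-boxes. Each runs 5′ to 3′ along the gene's own strand from 250 bases before to 50 bases after an annotated start (RefSeq, GRCm38.p6). Capitals mark the FOXO motif (GTAAACA, or its reverse complement) and the E-box (CACGTG). GC boxes (GGGCGG) are not capitalised.
Bcl2 promoter (chr1:106714241-106714540, minus strand): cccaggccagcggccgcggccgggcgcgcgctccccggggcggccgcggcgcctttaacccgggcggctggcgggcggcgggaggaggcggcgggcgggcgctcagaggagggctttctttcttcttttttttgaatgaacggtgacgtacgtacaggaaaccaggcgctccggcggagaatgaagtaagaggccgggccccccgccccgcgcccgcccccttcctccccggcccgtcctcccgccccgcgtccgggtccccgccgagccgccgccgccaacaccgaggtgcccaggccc
Bcl2l11 promoter, first of its windows (chr2:128125788-128126087, plus strand): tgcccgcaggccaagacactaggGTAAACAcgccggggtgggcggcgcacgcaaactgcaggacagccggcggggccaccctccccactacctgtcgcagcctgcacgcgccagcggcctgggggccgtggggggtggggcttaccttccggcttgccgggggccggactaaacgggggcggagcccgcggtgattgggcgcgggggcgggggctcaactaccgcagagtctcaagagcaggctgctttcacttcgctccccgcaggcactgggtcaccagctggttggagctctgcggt
Bbc3 promoter, the second of its windows (chr7:16310011-16310310, plus strand): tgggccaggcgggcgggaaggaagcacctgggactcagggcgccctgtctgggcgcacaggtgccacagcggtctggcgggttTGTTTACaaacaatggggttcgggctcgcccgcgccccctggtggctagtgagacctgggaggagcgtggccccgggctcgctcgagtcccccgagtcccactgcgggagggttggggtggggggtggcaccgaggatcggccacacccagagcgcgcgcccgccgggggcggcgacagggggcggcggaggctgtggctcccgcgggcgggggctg
Bax promoter (chr7:45466849-45467148, minus strand): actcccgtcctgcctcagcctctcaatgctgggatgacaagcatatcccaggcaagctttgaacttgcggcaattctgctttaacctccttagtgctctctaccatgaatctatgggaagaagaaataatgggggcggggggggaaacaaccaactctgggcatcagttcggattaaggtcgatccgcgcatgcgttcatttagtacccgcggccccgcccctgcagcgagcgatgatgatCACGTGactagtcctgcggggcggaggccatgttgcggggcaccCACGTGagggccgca

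RefSeq windows were taken for 9 of the 10 members, 15 windows in all, and 6 motifs were searched on both strands. Pmaip1 was left out, so nothing is said here about motifs in its promoter. GTAAACA stood 227 bases before the Bcl2l11 start, and on the opposite strand 167 bases before the Bbc3 start, and 3.65% of 32851 promoters of the same length hold it. CACGTG occurred 2 times in the Bax window and once in another Bbc3 window, and 7.15% of all promoters hold it. GC boxes were common, at 35.7% of all promoters, and the Bcl2 window held 7 of them in a sequence of 76.0% G and C, against a median of 52.7% over all promoters. This was not particular to Bcl2. The Bbc3 windows, at 76.0%, 74.7% and 78.0%, and the Bcl2l11 windows, at 71.0% and 74.0%, also held GC boxes. The Bcl2l1 windows, at 49.3%, 55.7% and 52.3%, held none, and neither did the Bak1 window (58.3%) or the second Bad window (66.0%). The Bax window (57.3%) held GC boxes, as did those of Mcl1 and Bid and the first Bad window. The C/EBP-ATF composite letters TGATGNAA (3.97% of promoters), the E2F letters TTTCCCGC (1.07%) and the CRE letters TGACGTCA (1.79%) were in none of the 15 windows. Such a match describes the letters in the window and says nothing about binding.

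Among pro-survival genes, Bcl2 (ENSMUSG00000057329, chr1:106538178-106714274, minus strand, GRCm38) encodes the founding member, which binds BH3-only proteins at the mitochondrion and the endoplasmic reticulum. It had 44.4, 49.6 and 56.2 normalised reads in GSK libraries 1 to 3, against 109, 106 and 84.6 in DMSO libraries 1 to 3. All GSK libraries lay below all DMSO libraries, and DMSO library 3 was the nearest to them. The mean was 50.1 ± 5.94 in GSK and 99.9 ± 13.4 in DMSO libraries (SD, n = 3 each), a log2 fold change of -0.98 (SE 0.21; limma adjusted p = 0.000953). An antisense transcript, D630008O14Rik, shares 6.09% of the exon bases of Bcl2. The library kit does not mark strand, so their shared reads cannot be told apart. That transcript was at 13.7, 11.9 and 10.6 normalised reads in GSK libraries, against 36.1, 27.5 and 15.8 in DMSO libraries.

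Bcl2l1 (ENSMUSG00000007659, chr2:152780668-152831728, minus strand) encodes mainly BCL-XL, the pro-survival protein that newborn neurons and maturing red blood cells rely on. It had 1148, 1447 and 1465 normalised reads in GSK libraries, against 808, 1059 and 654 in DMSO libraries. The groups did not overlap, with DMSO library 2 closest to GSK library 1. The mean was 1354 ± 178 in GSK and 841 ± 205 in DMSO libraries (SD, n = 3 each), a log2 fold change of 0.71 (SE 0.16; limma adjusted p = 0.00168). Haemoglobin genes took 2.22%, 2.88% and 2.91% of reads in GSK libraries 1 to 3, against 0.173%, 0.234% and 0.0268% in DMSO libraries 1 to 3. The libraries ranked in the same order by Bcl2l1 and by this haemoglobin share, and the part of red blood cell RNA in the Bcl2l1 difference was not tested. Gene counts do not separate the long, pro-survival splice form of Bcl2l1 from the short, pro-death one.

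Mcl1 (chr3:95658788-95663176, plus strand) encodes a short-lived pro-survival protein that progenitors depend on. It had 303, 315 and 196 normalised reads in GSK libraries, against 284, 249 and 261 in DMSO libraries. GSK library 3 was the lowest of the 6 and GSK libraries 1 and 2 the highest, so the groups overlapped. The log2 fold change was 0.01, with a 95% interval of -0.35 to 0.36 and a limma adjusted p of 0.980, and its sign turned under other scalings. MCL1 protein is set largely by turnover, which RNA counts do not measure.

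Of the effectors, Bax (chr7:45461697-45466898, minus strand) encodes the pore protein that moves from the cytosol to mitochondria. It had 642, 841 and 920 normalised reads in GSK libraries, against 746, 848 and 787 in DMSO libraries. GSK libraries held both the lowest and the highest of the 6 values. Its log2 fold change of -0.00 had a 95% interval of -0.29 to 0.29 and a limma adjusted p of 0.995, and 1 same-strand gene model, Gm45808, shares 12.2% of its exon bases. 

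Bak1 (chr17:27019810-27029009, minus strand) encodes the pore protein that sits in the mitochondrial membrane. It had 67.1, 62.5 and 40.3 normalised reads in GSK libraries, against 68.0, 78.2 and 102 in DMSO libraries. The groups did not overlap, though GSK library 1 and DMSO library 1 were close. The log2 fold change of -0.55 (SE 0.24) had a limma adjusted p of 0.0725, which did not pass, and 0.0277 without GSK library 1. Ggnbp1, on the opposite strand, shares 18.2% of Bak1's exon bases. Ggnbp1 itself had 58.0, 57.9 and 23.3 normalised reads in GSK libraries, against 61.6, 66.2 and 101 in DMSO libraries. Both genes were lowest in GSK library 3 and highest in DMSO library 3, and the part of shared reads was not tested.

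Among BH3-only genes, Bcl2l11 (ENSMUSG00000027381, chr2:128126038-128162547, plus strand) encodes BIM, which binds every pro-survival member and is under the control of FOXO factors. It had 266, 212 and 224 normalised reads in GSK libraries, against 132, 145 and 138 in DMSO libraries. The lowest GSK library stood well above the highest DMSO library. The mean was 234 ± 28.4 in GSK and 138 ± 6.74 in DMSO libraries (SD, n = 3 each), a log2 fold change of 0.75 (SE 0.16; limma adjusted p = 0.000864).

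Bid (ENSMUSG00000004446, chr6:120891930-120916853, minus strand) encodes the protein that caspase-8 cleaves to link death receptors to mitochondria. It had 114, 80.9 and 98.7 normalised reads in GSK libraries, against 149, 172 and 187 in DMSO libraries. Every GSK library lay below every DMSO library. The mean was 97.8 ± 16.5 in GSK and 169 ± 19.2 in DMSO libraries (SD, n = 3 each), a log2 fold change of -0.79 (SE 0.18; limma adjusted p = 0.00164). Bcl2l13, on the opposite strand, shares 17.7% of Bid's exon bases and was itself lower, at 607, 615 and 563 normalised reads in GSK libraries, against 815, 839 and 683 in DMSO libraries. How far their shared reads set the Bid difference was not tested.

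Bbc3 (chr7:16308393-16318205, plus strand) encodes PUMA, a main death gene downstream of p53. It had 37.6, 34.9 and 53.1 normalised reads in GSK libraries, against 25.5, 24.9 and 29.7 in DMSO libraries. The groups did not overlap, and the log2 fold change of 0.61 (SE 0.28) had a limma adjusted p of 0.0911. Bbc3 was among the lowest members in reads, so its interval, 0.03 to 1.18, was the widest of the 10.

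Bad (chr19:6941861-6951899, plus strand) encodes a protein that growth factor signalling holds inactive by phosphorylation. It had 266, 316 and 322 normalised reads in GSK libraries, against 234, 218 and 255 in DMSO libraries. The groups did not overlap, and the log2 fold change of 0.35 (SE 0.15) had a limma adjusted p of 0.0647. It passed without GSK library 1 (adjusted p = 0.0142) and when library totals were set equal without haemoglobin and ribosomal RNA genes (adjusted p = 0.0322). Gpr137, on the opposite strand, shares 20.5% of its exon bases and had 176, 236 and 170 normalised reads in GSK libraries, against 119, 137 and 178 in DMSO libraries.

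Pmaip1 encodes NOXA, which binds MCL1 and speeds its destruction. It had 88.8, 88.2 and 75.3 normalised reads in GSK libraries, against 55.2, 51.6 and 95.7 in DMSO libraries. DMSO library 3 was the highest of all 6 and the other DMSO libraries the lowest. The log2 fold change of 0.37 (SE 0.23) had a limma adjusted p of 0.231, and without DMSO library 3 it was 0.64 with an adjusted p of 0.0358.

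The 3 pro-survival members thus held 1 higher, 1 lower and 1 that did not pass, with a median log2 fold change of 0.01. The 7 pro-death members held 1 higher, 1 lower and 5 that did not pass, with a median of 0.35. Within them, neither effector passed, and of the 5 BH3-only genes Bcl2l11 rose and Bid fell.

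Pro-survival genes were set against pro-death genes within each library by subtracting mean log2(value + 1) of the 7 from that of the 3. The difference was 0.81, 1.05 and 0.85 log2 units in GSK libraries, against 1.29, 1.27 and 0.72 in DMSO libraries. DMSO library 3 lay below all GSK libraries and DMSO libraries 1 and 2 above them, so the groups overlapped. The mean was 0.90 ± 0.13 in GSK and 1.09 ± 0.33 in DMSO libraries (SD, n = 3 each), a difference of -0.19 that was not tested because the members were chosen. It was -0.38 without DMSO library 3, -0.09 without DMSO library 1 and -0.10 without DMSO library 2. With the BH3-only genes alone as the pro-death side the difference was -0.35, and with the effectors alone it was 0.19, the opposite sign.

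Of 10 chosen log2 ratios between single genes, 6 separated the groups and 4 overlapped, beside 47.2% of single genes tested that did not overlap. No such share was computed over gene pairs, so the count is no result about the members. Each of the 6 includes a member that the single-gene test called. A gene lower in all GSK libraries set against a gene higher in all of them separates by construction. Bcl2 minus Bcl2l11, the log2 ratio of a guard to the BH3-only protein it binds, was -2.20 ± 0.31 in GSK and -0.47 ± 0.22 in DMSO libraries (SD, n = 3 each, no overlap). Bcl2 minus Bcl2l1, the log2 ratio of the pro-survival pair, was -4.73 ± 0.10 in GSK and -3.04 ± 0.24 in DMSO libraries, also without overlap. The reads of these genes therefore stood further toward Bcl2l1 in GSK libraries. Bcl2l11 minus Bid was 1.26 ± 0.11 in GSK and -0.28 ± 0.13 in DMSO libraries, without overlap. Bcl2l1 minus Bax was 0.76 ± 0.09 in GSK and 0.06 ± 0.30 in DMSO libraries, and Bcl2 minus Bax was -3.96 ± 0.12 in GSK and -2.98 ± 0.22 in DMSO libraries, so that relative to Bax the pair moved apart. Bcl2l1 minus Bcl2l11 overlapped, at 2.52 ± 0.36 in GSK and 2.57 ± 0.32 in DMSO libraries, as both genes rose. Mcl1 minus Bcl2l11 was 0.19 ± 0.38 in GSK and 0.93 ± 0.16 in DMSO libraries, without overlap. The other overlapping ratios were Mcl1 minus Bax, at -1.57 ± 0.59 in GSK and -1.58 ± 0.19 in DMSO libraries, Mcl1 minus Pmaip1, at 1.65 ± 0.25 in GSK and 2.01 ± 0.50 in DMSO libraries, and Bax minus Bak1, at 3.81 ± 0.62 in GSK and 3.26 ± 0.29 in DMSO libraries. These ratios are on the log2(value + 1) scale, compare libraries and not levels of the genes, and got no test.

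**Figure D3:**
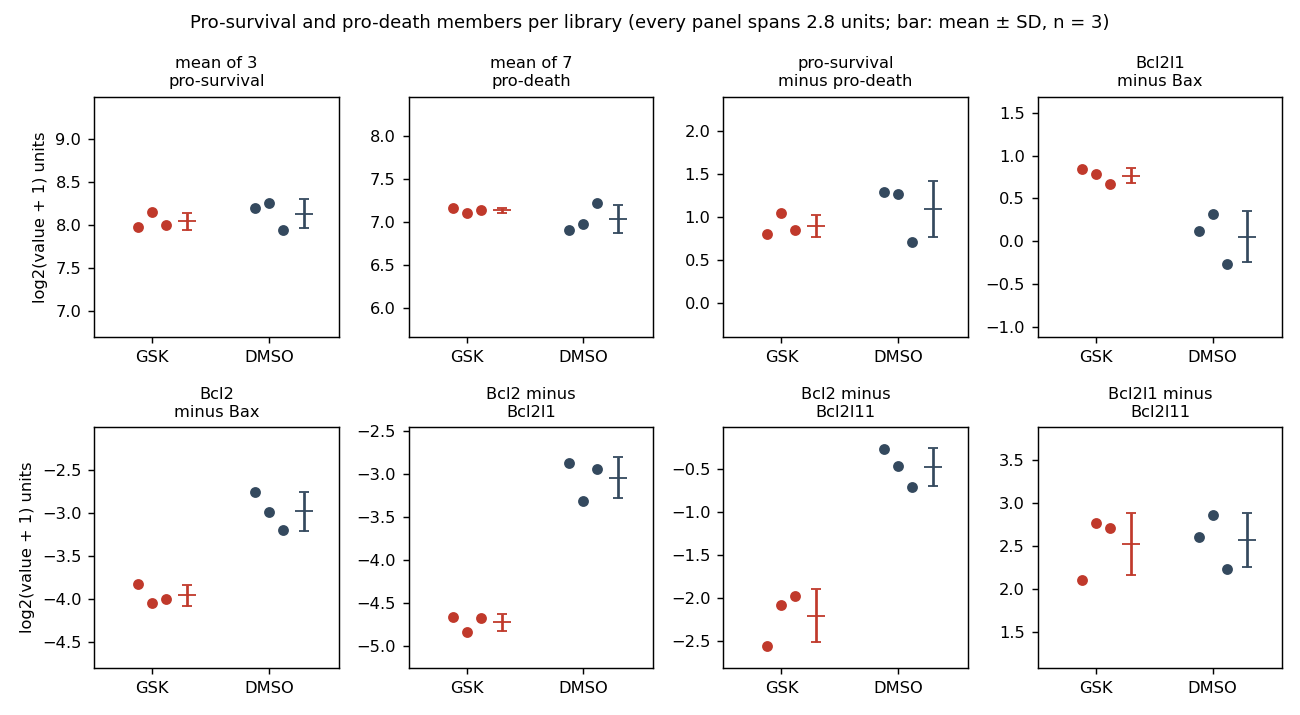
Mean log2(value + 1) of the pro-survival and pro-death members, their difference, and log2 ratios of single genes in every library, with GSK left of DMSO, every panel spanning 2.8 units and bars for the mean ± SD (n = 3). The class difference overlapped (0.90 in GSK and 1.09 in DMSO libraries), while Bcl2 minus Bcl2l11 (-2.20 in GSK and -0.47 in DMSO libraries) did not. The latter separates by construction, as Bcl2 was lower and Bcl2l11 higher in all GSK libraries.

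Levels of different members were compared as normalised reads per kilobase of merged exon. Bax had the highest level, at 508 ± 90.9 reads per kb in GSK and 504 ± 32.7 in DMSO libraries (SD, n = 3 each), followed by Bcl2l1 at 295 ± 38.8 reads per kb in GSK and 183 ± 44.6 in DMSO libraries. Bad came next at 118 ± 11.9 reads per kb in GSK and 92.1 ± 7.14 in DMSO libraries, and Mcl1 at 79.4 ± 19.1 in GSK and 77.4 ± 5.12 in DMSO libraries. The library ranges of neighbours in this upper part of the order, down to the fifth place, did not overlap in either group. Bcl2 was the lowest, at 5.47 ± 0.65 reads per kb in GSK and 10.9 ± 1.46 in DMSO libraries.
The middle of the order differed between groups. In GSK libraries the order was Pmaip1 (30.8 ± 2.78 reads per kb), Bcl2l11 (29.2 ± 3.54), Bid (27.5 ± 4.64), Bak1 (23.5 ± 5.95) and Bbc3 (19.7 ± 4.61). Neighbours among these overlapped, while Bbc3 did not overlap with Bcl2. In DMSO libraries the order was Bid (47.6 ± 5.40 reads per kb), Bak1 (34.4 ± 7.30), Pmaip1 (24.7 ± 8.97), Bcl2l11 (17.2 ± 0.84) and Bbc3 (12.6 ± 1.24). There Bid overlapped with Bak1, Bak1 with Pmaip1, and Bbc3 with Bcl2. Dividing by the longest transcript instead moved places in the middle and kept Bax and Bcl2l1 at the top and Bcl2 at the bottom.

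**Figure D4:**
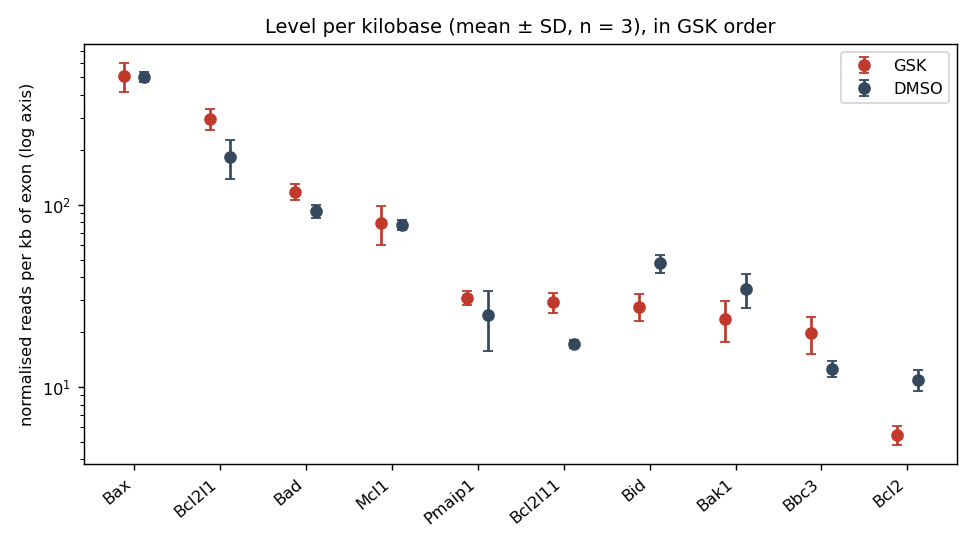
Normalised reads per kilobase of merged exon for the 10 members, on a log axis, as mean ± SD (n = 3), with GSK left of DMSO and genes in the order of GSK libraries. Bax led both groups (508 reads per kb in GSK and 504 in DMSO libraries) and Bcl2 was lowest in both (5.47 in GSK and 10.9 in DMSO libraries).

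Genes most like Bcl2 and Bcl2l11 over the 6 libraries were taken by Pearson r of log2(value + 1) among protein-coding genes whose mean reached 100. The group difference sets most of such an r. For Bcl2, with 9059 genes compared, they were Bend3 (r = 0.998), Sox5 (0.997), Esco2 (0.997), Nup93 (0.997) and Fbxw7 (0.997). For Bcl2l11, with 9058 compared, they were Fam160b2 (r = 0.999), Ccpg1 (0.993), Ccng1 (0.992), Osbpl2 (0.991) and Abcb10 (0.990).

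Apoptosis genes outside the 10 members were counted in 8 lists, in which 39 of 85 genes tested passed, 20 higher and 19 lower, beside 36.1% of all genes tested (17% higher and 19.1% lower). The counts of each list below stand beside the same background shares. Among other BCL2 relatives 11 of 16 were tested, 5 rose and 3 fell, with a median log2 fold change of 0.65. Bok, a further effector, fell to 76.2, 86.4 and 103 normalised reads in GSK libraries, against 269, 272 and 230 in DMSO libraries (log2 fold change -1.54, SE 0.17; limma adjusted p = 5.5e-07). Thus Bok, in contrast to Bax and Bak1, passed the test, though the differences between these genes were not tested. Bnip3 and Bnip3l, mitophagy receptors that hypoxia induces, rose by 1.22 and 1.10 on the log2 scale (limma adjusted p = 8.0e-06 and 4.9e-06). Bmf, a BH3-only gene, rose by 0.65 (limma adjusted p = 0.00278). Bcl2a1b rose by 3.02 (limma adjusted p = 0.00107), at 12.5 to 35.8 normalised reads in GSK and 0 to 4.65 in DMSO libraries. It is an immune cell gene with near-identical copies, so its reads are uncertain. Bcl2a1d, one of these copies, is also counted among the 5 that rose, at 2.08 (limma adjusted p = 0.00964). A sum of 10 microglia and macrophage markers ran from 680 to 1566 normalised reads in GSK and from 70.5 to 380 in DMSO libraries. Of these markers 5 rose, none fell and 5 did not pass. The sum was 130, 70.5 and 380 in DMSO libraries 1 to 3.

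Downstream of the mitochondrion, 2 of 13 apoptosome and caspase genes rose and 3 fell, with a median log2 fold change of -0.14. Casp6, an executioner caspase, rose by 0.60 on the log2 scale (limma adjusted p = 0.00303), and Dffa, the inhibitor of the caspase-activated DNase, rose by 0.50 (adjusted p = 0.0284). Cycs, which encodes cytochrome c, fell by 0.54 (adjusted p = 0.00549), and Endog, a mitochondrial nuclease, fell by 0.67 (adjusted p = 0.00410). The caspase that starts the cascade and the scaffold it sits on did not pass, with Casp9 at a log2 fold change of 0.08 (adjusted p = 0.742) and Apaf1 at -0.18 (adjusted p = 0.403).

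Of 5 inhibitor of apoptosis genes tested, none rose and 2 fell. Birc5, which also serves cell division, fell by 1.24 on the log2 scale (limma adjusted p = 4.5e-07), and Xiap, the direct caspase inhibitor, fell by 0.35 (adjusted p = 0.0450). Of 8 death receptor genes tested, 3 rose and none fell. Ripk1, a receptor-bound kinase, rose by 0.73 (adjusted p = 0.00719), Tnfrsf10b, the TRAIL receptor, rose by 0.58 (adjusted p = 0.0172), and Cflar, which restrains caspase-8, rose by 0.39 (adjusted p = 0.0440). Of 10 mitochondrial partners none rose and 2 fell, Slc25a5, an ADP/ATP carrier, which fell by 0.95 (adjusted p = 2.6e-05), and Ppif, cyclophilin D, which fell by 0.62 (adjusted p = 0.00164).

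Transcription factors and cofactors known to act on BCL2 family genes had 8 of 18 higher and 3 lower, beside 17% and 19.1% of all genes tested, and a median log2 fold change of 0.52. Atf5 was 7.98 times, Atf3 10.6 times and Ddit3, which encodes CHOP, 3.90 times as high in GSK as in DMSO libraries (limma adjusted p = 3.2e-11, 2.3e-08 and 3.1e-09). Atf5 had 630, 709 and 622 normalised reads in GSK libraries, against 69.0, 92.8 and 82.7 in DMSO libraries, which did not overlap. Foxo3, a forkhead factor, rose by 1.19 on the log2 scale (limma adjusted p = 0.000184), and Foxo1 and Foxo4 did not pass, at 0.40 and -0.04. A link between these genes and the FOXO motif was not tested. Mycn, which drives progenitor growth, fell by 2.07 (adjusted p = 1.3e-09), and E2f1, a cell cycle factor, fell by 0.79 (adjusted p = 0.00498).

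In the p53 circuit 2 of 12 genes rose, 2 fell and the median log2 fold change was 0.02. Trp53inp1, a stress-induced p53 target, rose by 1.18 (limma adjusted p = 1.8e-05), and Siva1, a death-promoting target, fell by 1.06 (adjusted p = 1.0e-05). Aen, an apoptosis nuclease, fell by 0.47 (adjusted p = 0.0136), while Trp53 itself had a log2 fold change of -0.11 (adjusted p = 0.572). Of 11 genes that set the stability of BCL2 family proteins, 1 rose and 4 fell, with a median of -0.20. Ubiquitin ligases that act on MCL1 went in both directions. Fbxw7 fell by 0.65 (adjusted p = 0.000918) and Huwe1 fell by 0.58 (adjusted p = 0.00632), while Btrc rose by 0.35 (adjusted p = 0.0355) and Trim17 did not pass, at 0.59 (adjusted p = 0.0851). Usp9x, which removes ubiquitin from MCL1, fell by 0.55 (adjusted p = 0.00635).

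**Figure D5:**
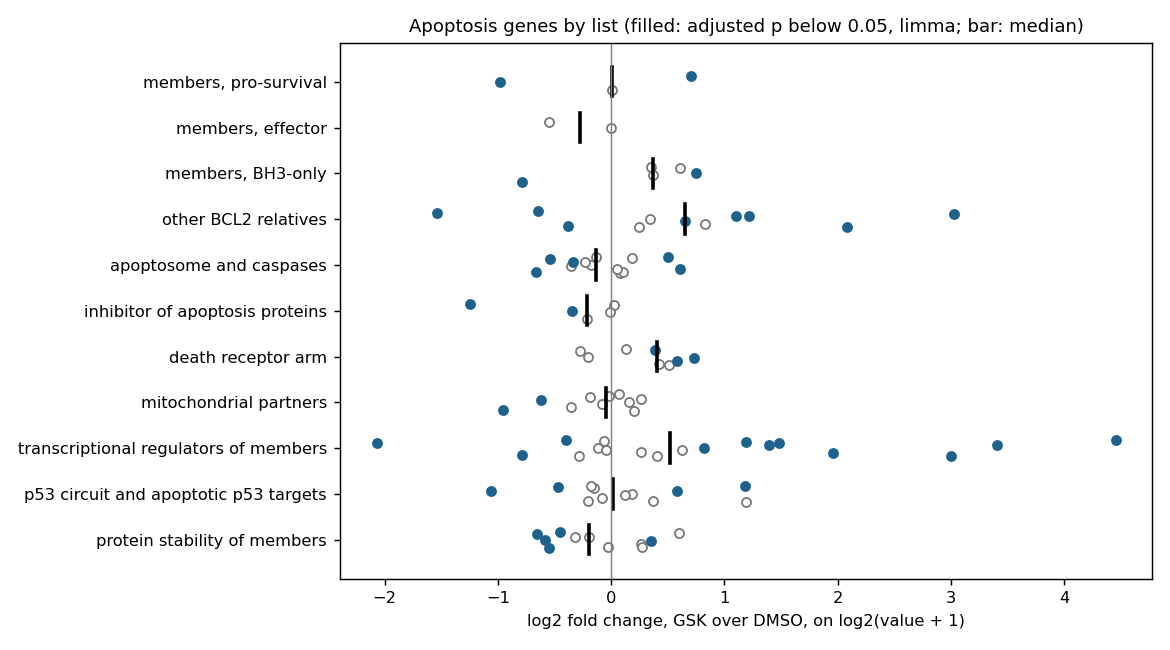
Log2 fold change of GSK over DMSO on the log2(value + 1) scale for the members by class and for the lists of other apoptosis genes, each point a gene, filled where the limma adjusted p was below 0.05, with a bar at the median. Transcriptional regulators spread widest, from -2.07 (Mycn) to 4.45 (Trib3), beyond the range of the members, -0.98 to 0.75.

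The libraries held 7187089 to 10224348 reads, and the ribosomal RNA overlap took 23.2% to 26.1% of reads in GSK and 20.2% to 21.6% in DMSO libraries. Mitochondrial genes took 0.892% to 1.08% of reads in GSK and 0.519% to 0.697% in DMSO libraries, without overlap, and the part of this difference in the results was not tested. The sorted cells expressed radial glia markers in both groups, but 8 of 11 were lower in GSK libraries, their sum running from 11916 to 14908 normalised reads in GSK and from 21285 to 22241 in DMSO libraries. Prom1, the gene of the sorting marker, fell by 1.01 on the log2 scale (limma adjusted p = 7.6e-06). The sum of 10 neuron markers ran from 22386 to 27035 in GSK and from 7503 to 15137 in DMSO libraries, with 5 rising and 1 falling. The sum of 6 intermediate progenitor markers ran from 1749 to 2446 in GSK and from 893 to 1213 in DMSO libraries, with 5 rising and none falling. The sum of 12 red blood cell markers ran from 187163 to 277733 in GSK and from 2478 to 21074 in DMSO libraries, with 10 of 11 tested rising. The sum of 6 endothelium markers overlapped, at 38.2 to 63.7 in GSK and 48.9 to 63.2 in DMSO libraries. Only 2 of the 6 reached the filter, Pecam1 at a log2 fold change of 0.29 and Kdr at -0.84, and neither passed the test. These low values leave the endothelial share undecided. The sum of 7 mesenchyme markers, which the label does not name, ran from 15390 to 25433 in GSK and from 26077 to 33122 in DMSO libraries. The collagen genes Col1a1 and Col3a1 fell, none of the 7 rose, 5 did not pass, and the median log2 fold change was 0.03. No marker list was at 0 in DMSO libraries. In bulk RNA, fewer cells of a type and less RNA per cell cannot be told apart. The part of cell makeup, red blood cells included, in the differences of members and of the other apoptosis genes was not tested.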

How the data were processed

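The authors deposited a single table of normalised read counts (a signal value per gene and library), and each gene's value was repeated on its transcript rows, so 1 row per gene was kept. The submitters' processing notes list the tools STAR and DESeq and the builds GRCm38 and mm10, without roles or versions. The read counter and strand setting were not given in the sources used here. In all 6 libraries 100% of nonzero values were whole multiples of the value of 1 read within 0.01, so whole reads were recovered.

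From these values limma 3.58.1 (R 4.3.3) was run on log2(value + 1) with group as the only term and a robust, trended variance prior. The pseudocount of 1 makes fold changes understate the change of low genes. It covered 15073 genes whose mean reached 10, with Benjamini-Hochberg adjustment at 0.05. edgeR 4.0.16 (quasi-likelihood) and DESeq2 1.42.0 on recovered reads were alternatives, as were other pseudocounts, filters, scalings, a replicate block and leaving out each library. The limma and edgeR fits were also run on simulated counts, in which a far smaller share of genes changed than was called here. That run therefore does not show how they behave on these data.

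Members and lists were chosen with earlier results of these data known. Named genes were all 10 members, up to 4 called genes per list by smallest p, and the 5 genes most like Bcl2 and Bcl2l11. A gene that this rule names is not reported here. Bmf, Bcl2a1d, Btrc, Trim17, Casp9, Apaf1, Foxo1, Foxo3, Foxo4, E2f1, Trp53, Trib3 and the markers were named in addition, after their values were seen. Coordinates and exon lengths came from GENCODE vM21 on GRCm38, and promoters from RefSeq. Same-numbered libraries correlated at 0.01, -0.02 and 0.05 in their deviations from group means, so the numbers were not taken to pair them. No replicate pair agreed within sampling noise (chi-square per degree of freedom 4.44 to 14.1). The labelled dose of 100 mM was not verified.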

Additional observations from a re-analysis of the deposited data

How the results depend on the processing

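The count of members called stayed between 3 and 6 over 18 alternatives, that of apoptosis genes outside the members between 30 and 50 (39 as reported), and that of all genes between 3985 and 6298 (5446 as reported). Leaving out each library in turn gave 4 to 6 members, 30 to 50 outside genes and 4083 to 6298 genes. The lowest count, 3, came with a mean of at least 100, which leaves Bcl2, Bak1, Bbc3 and Pmaip1 untested. Bcl2, Bcl2l1, Bcl2l11 and Bid kept their calls and directions in every alternative that tested them, with highest adjusted p of 0.00896, 0.0189, 0.00609 and 0.0170. Bax and Mcl1, which were not called, changed sign: Mcl1 was -0.0622 with equal library totals and -0.00961 with TMM scaling, and ranged from -0.12 to 0.22 with a library left out. Bax was 0.0391 with equal totals without globin and ribosomal RNA genes and 0.0107 with DESeq2, and ranged from -0.11 to 0.15 with a library left out. The pro-survival minus pro-death contrast was 0.19 with effectors as the pro-death side, and ran from -0.38 to -0.09 with a library left out. A replicate block on the library numbers gave 4 members, 40 outside genes and 5642 genes called, and changed no member's call. Scalings moved the median of all genes by less than 0.1. Members under about 100 reads (Bcl2, Bak1, Bbc3, Pmaip1) had the widest intervals, and the cause of the changes above was not tested.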
